A study of Mus musculus with 6 samples.

Results

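The genes described here are 34 mouse genes of the motile axoneme, listed by name for their known roles, with earlier results of these data known, out of 39179 genes counted. No measured value entered the rule that picks them. They comprise the transcription factor Foxj1, 12 dynein heavy chains, 4 dynein intermediate and light chains, the docking protein Armc4, 3 radial spoke proteins, 4 tektins, 4 proteins of the central pair apparatus, the molecular rulers Ccdc39 and Ccdc40, Drc1 and Ccdc65 of the nexin-dynein regulatory complex, and the inner microtubule protein Mns1. All 34 were matched to an Ensembl gene of the count tables.

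The samples were sensory epithelia of the cochlea, the hearing organ, and of the vestibule, the balance organ, from wild-type C57Bl/6J mice on the day of birth (P0), with no treatment and with both sexes pooled. Each tissue gave 3 RNA-seq libraries, made from 450 ng of total RNA per library with a stranded mRNA kit and read as pairs of 100 bases. Tissue was pooled from 20 cochleae or 20 vestibules, of 10 mice according to the series' design text, and the labels do not show whether the 3 libraries of a tissue came from separate pools, so p-values measure only the spread between these libraries, which may be technical. The cochlear and vestibular tissues came from the same strain and age, and no other condition was varied.

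A motile cilium is built on an axoneme, a ring of doublet microtubules around a central pair. Outer and inner dynein arms on the doublets provide the force, radial spokes and the central pair apparatus regulate them, and the nexin-dynein regulatory complex links neighbouring doublets. Hair cells are born with a kinocilium, a single true cilium beside the stereocilia, which vestibular hair cells keep and mammalian cochlear hair cells lose as they mature after birth. Foxj1 and the RFX transcription factors switch on axoneme genes in cells with motile cilia.

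Reads counted on genes numbered between 24464483 and 29225105 per cochlear library and between 25476572 and 33664793 per vestibular library, so that 1 CPM, the unit that scales counts to the size of the library, stood for 24.5 to 33.7 counts. The test covered the 14723 genes that reached 1 CPM in no fewer than 3 libraries. Between tissues 2325 genes were called higher in the vestibule and 1711 higher in the cochlea at a false discovery rate (FDR) of 0.05, or 2754 and 1251 without TMM scaling, and the median log2 fold change over all genes tested was 0.00, or 0.13 without it. Hair cell markers were present in both tissues, and all 16 of them and all 13 supporting cell markers passed the filter. Cochlea replicate 3 stood apart in skeletal muscle genes, whose summed level was 309 CPM there and between 4.64 and 27.1 CPM in the other 5 libraries. Levels below are CPM after TMM scaling unless counts are named, and log2 fold changes are vestibule minus cochlea, so a positive value is higher in the vestibule.

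Of the 34 axoneme genes, 31 passed the filter, and 26 of these were called higher in the vestibule and 0 higher in the cochlea, where 15.8% and 11.6% of all genes tested were called in the respective direction. The 5 that passed the filter without a call were Dnah1, Dnah7b, Dnah8, Dnaic1 and Rsph9. The 3 that did not pass were Dnah3, Dnah12 and Spag17. The filter itself favoured genes with a difference, since Dnah5, Dnah11, Dnah7a, Dnali1, Tekt3 and Tekt4 reached 1 CPM in no cochlear library and passed through the vestibular libraries alone, and Dnah9, Dnah6, Dnah10 and Spef2 passed with only 1 or 2 cochlear libraries at that level. Counts over the 31 are therefore an account of the genes and not a measure of how far they stand apart. In the same fit without the filter, 24771 genes were tested, 11.3% of them were called higher in the vestibule, and 26 of the 34 axoneme genes were. The median log2 fold change of the 31 was 1.74. In 27 of the 31 all 3 vestibular libraries lay above all 3 cochlear ones, against 22.3% of all genes tested. No axoneme gene had its cochlear libraries all above its vestibular ones, while 2873 of the 14723 genes tested did. The point estimate was 2-fold or more for 24 of the 26 called genes, 4-fold or more for 12 and 8-fold or more for 7. Of these 7, all but Hydin are among the genes named above that fell short of 1 CPM in some or all cochlear libraries. Shares over all genes at these cut-offs were not counted, so the counts only describe the genes. Because the tissue is a mixture of cells, more cells of a type and more RNA per cell cannot be told apart in any of these values.

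**Figure D1:**
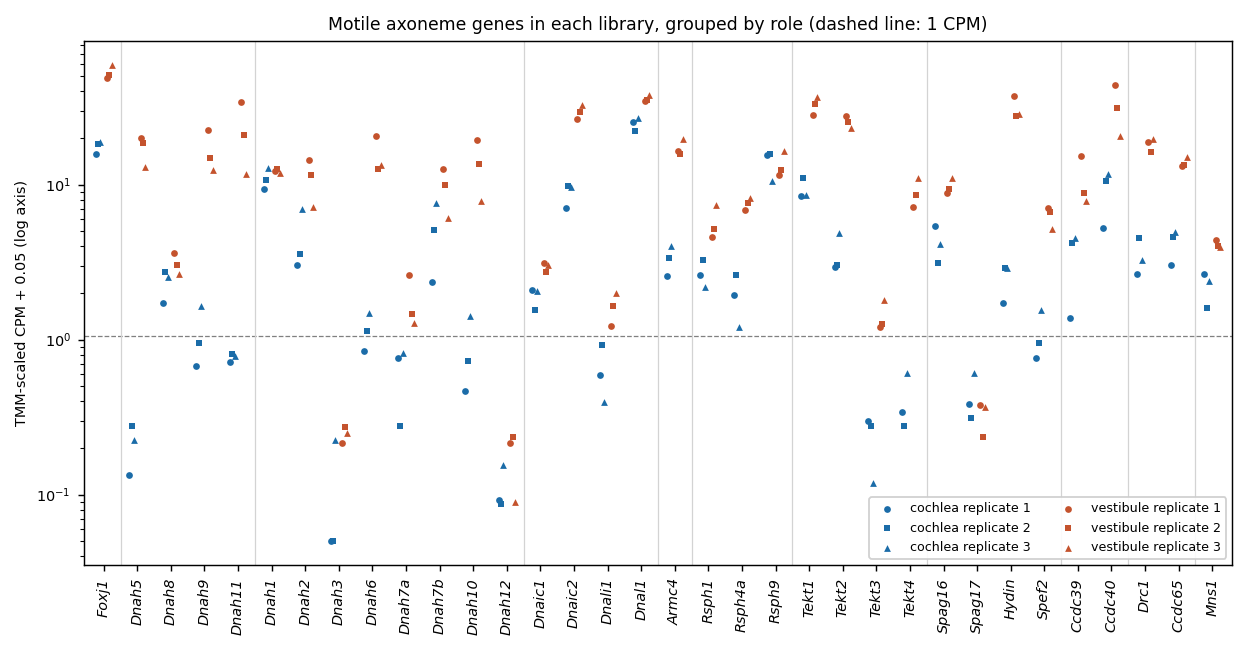
Level of each of the 34 axoneme genes in each library, as TMM-scaled CPM plus 0.05 on a log axis, with genes grouped by role, cochlear libraries in blue, vestibular libraries in red and replicates by symbol. Most genes show 3 red points above 3 blue ones, Dnah5 with the widest gap, while Dnah1, Dnah8, Dnah7b and Rsph9 overlap and Dnah3, Dnah12 and Spag17 lie below the dashed line at 1 CPM.

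Foxj1 (ENSMUSG00000034227, chr11:116330704-116335399, minus strand), the regulator of motile cilium genes, was at 15.6, 18.3 and 18.9 CPM in the cochlear libraries and at 48.4, 51.1 and 59.4 CPM in the vestibular ones. The 2 groups did not overlap, and each varied little among its libraries. The log2 fold change was 1.59 (SE 0.14, adjusted p = 8.7e-05), a 3.01-fold difference with a 95% interval of 2.40 to 3.77. Its counts, 373 to 541 in the cochlea, show that the gene was well measured in both tissues.

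Other regulators of the ciliary programme were mostly low. Of 12 listed, Rfx1, Rfx2 and Rfx3 passed the filter, and Rfx2 was called, with a log2 fold change of 0.85 (SE 0.27, adjusted p = 0.0471). Rfx3, an RFX factor needed for cilia in several tissues, had 408, 537 and 1237 counts in cochlear libraries and 1002, 989 and 696 in vestibular ones, and its log2 fold change of 0.18 (SE 0.32) was not called. Foxn4 had 1 to 3 counts in cochlear libraries and 16 to 30 in vestibular ones, and Myb 5 to 11 and 16 to 40, both too few for the filter. Mcidas and Gmnc, which start the programme of cells with many cilia, had at most 1 count in every library.

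Promoter windows were searched for the letters GTTNCCAT, the core of the X-box to which RFX factors bind, and for the forkhead letters GTAAACA, on both strands. The windows run from 250 bases before to 50 bases after a gene's start in RefSeq (GRCm38.p6), and 29 of the 34 genes had one. Armc4, Dnah3, Foxj1, Rsph1 and Rsph4a had none in the table used. The X-box letters occurred in 5 of the 29 genes (17.2%) and in 5.12% of the 27025 genes of the table, and the forkhead letters in 1 of the 29 (3.45%) and in 4.05% of all. Among other axoneme genes the X-box letters occurred in 12 of 54 (22.2%), and among intraflagellar transport genes in 0 of 20. The sequences that hold a match are printed on the gene's strand with the matched letters in capitals, since they show where the match lies in genes with very different changes. The log2 fold changes of the 5 genes with the X-box letters were 6.67 for Dnah5, 3.65 for Hydin, 1.80 for Tekt1 and 1.41 for Dnali1, and Spag17 did not pass the filter. A match of letters is a description of the window and no evidence of binding.
Dnah5, X-box letters, chr15:28203659-28203718, plus strand: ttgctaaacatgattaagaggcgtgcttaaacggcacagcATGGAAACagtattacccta
Hydin, X-box letters, chr8:110266932-110266979, plus strand: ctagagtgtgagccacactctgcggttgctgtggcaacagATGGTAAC
Tekt1, X-box letters, chr11:72361883-72361937, minus strand: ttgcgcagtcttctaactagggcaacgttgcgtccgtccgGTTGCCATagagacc
Dnali1, X-box letters, chr4:125065658-125065705, minus strand: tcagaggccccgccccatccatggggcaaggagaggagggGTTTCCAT
Spag17, X-box letters, chr3:99885289-99885348, plus strand: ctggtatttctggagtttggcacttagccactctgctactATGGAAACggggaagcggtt
Tekt3, forkhead letters, chr11:63061445-63061503, plus strand: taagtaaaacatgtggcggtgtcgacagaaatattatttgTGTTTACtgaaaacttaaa
The X-box match began 67 bases before the start site in Dnah5, 5 in Hydin, 15 in Tekt1, 8 in Dnali1 and 88 in Spag17, and the forkhead match of Tekt3 began 174 bases before it.

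The outer dynein arms are the main motors of the beat, and each of their heavy chains carries a motor domain. Dnah5 (ENSMUSG00000022262, chr15:28203752-28472052, plus strand), a core outer arm heavy chain, had 2, 6 and 5 counts in the cochlear libraries and 728, 502 and 325 in the vestibular ones. It was thus near the limit of detection in the cochlea and plainly expressed in the vestibule. The log2 fold change was 6.67 (SE 0.35, adjusted p = 5.8e-06), the largest of the 31 tested axoneme genes, a 102-fold difference with a 95% interval of 58.9 to 176. Dnah11 (ENSMUSG00000018581, chr12:117877982-118199043, minus strand), a partner heavy chain of the proximal cilium, was at 0.669, 0.754 and 0.732 CPM in the cochlea and at 33.9, 20.9 and 11.6 CPM in the vestibule. Its vestibular libraries spread widely, from 292 to 1241 counts, and the cochlear ones had 16 to 21. The log2 fold change was 4.94 (SE 0.42, adjusted p = 6.7e-05). Dnah9 (ENSMUSG00000056752, chr11:65831282-66168551, minus strand), the partner of the distal cilium, was at 0.627, 0.905 and 1.60 CPM in the cochlea and at 22.4, 14.8 and 12.4 CPM in the vestibule, a log2 fold change of 3.96 (SE 0.37, adjusted p = 0.00011). Dnah8, a heavy chain best known from sperm, was the exception in this group. Its cochlear libraries held 1.67, 2.68 and 2.48 CPM and its vestibular ones 3.55, 3.00 and 2.62 CPM, so the groups overlapped. The log2 fold change of 0.43 was not called (95% interval -0.16 to 1.01, adjusted p = 0.259).

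The inner arms set the form of the beat, and 6 of their 8 listed heavy chains were tested, with log2 fold changes from 0.15 to 4.02. Dnah10 (ENSMUSG00000038011, chr5:124725085-124834308, plus strand), a chain of the 2-headed inner arm, was at 0.418, 0.678 and 1.36 CPM in the cochlea and at 19.3, 13.4 and 7.81 CPM in the vestibule, a log2 fold change of 4.02 (SE 0.47, adjusted p = 0.000348). Dnah6 (ENSMUSG00000052861, chr6:73017606-73221651, minus strand), a single-headed inner arm chain, was at 0.794, 1.09 and 1.43 CPM in the cochlea and at 20.6, 12.5 and 13.2 CPM in the vestibule, a log2 fold change of 3.79 (SE 0.31, adjusted p = 4.7e-05). For both genes the lowest vestibular library lay well above the highest cochlear one. Dnah2 was at 2.97, 3.51 and 6.91 CPM in the cochlea and at 14.4, 11.5 and 7.10 CPM in the vestibule, so that cochlea replicate 3 and vestibule replicate 3 nearly met, and its log2 fold change was 1.3 (SE 0.37, adjusted p = 0.0302). Dnah1 lay in a narrow range, from 9.28 to 12.8 CPM in the cochlea and from 11.8 to 12.5 CPM in the vestibule. Its log2 fold change of 0.15 was not called, with a 95% interval of -0.24 to 0.54.

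Dnah7a and Dnah7b are close copies, and 20.0% and 23.5% of the 100-base stretches of their longest transcripts also occurred in the other or in Dnah7c, so reads could be split between them and their values are uncertain. Dnah7a had 17, 6 and 22 counts in cochlear libraries and 93, 38 and 31 in vestibular ones, a log2 fold change of 1.61 (SE 0.46, adjusted p = 0.0316). Dnah7b was at 2.30, 5.05 and 7.57 CPM in the cochlea and at 12.5, 9.87 and 6.03 CPM in the vestibule. Its groups overlapped through cochlea replicate 3, and the log2 fold change of 0.93 was not called (95% interval -0.02 to 1.88, adjusted p = 0.137), although without that library it was 1.36 and called (adjusted p = 0.0350). Dnah3 had 0, 0 and 5 counts in cochlear libraries and 6, 6 and 5 in vestibular ones, and Dnah12 had 1, 1 and 3 against 6, 5 and 1. The ratio of summed counts, vestibule over cochlea, was 3.03 for Dnah3 and 2.14 for Dnah12, with 95% intervals for counting error of 1.07 to 10.5 and 0.701 to 7.75. In the fit without the filter neither was called, at a log2 fold change of 1.55 (SE 0.92, adjusted p = 0.291) for Dnah3 and 1.02 (SE 0.87, adjusted p = 0.491) for Dnah12.

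Intermediate and light chains attach and tune the arms. Of the 4 listed, 3 were called higher in the vestibule, beside 15.8% of all genes tested. Dnali1 among them passed the filter through the vestibular libraries alone. Dnaic2 (ENSMUSG00000034706, chr11:114727408-114757889, plus strand), an outer arm intermediate chain, was at 7.02, 9.69 and 9.66 CPM in the cochlea and at 26.4, 29.3 and 32.6 CPM in the vestibule, a log2 fold change of 1.74 (SE 0.18, adjusted p = 0.000158). Dnaic1, its partner chain, was at 2.05, 1.51 and 2.02 CPM in the cochlea and at 3.09, 2.66 and 2.97 CPM in the vestibule. All 3 vestibular libraries lay above the cochlear ones, but the log2 fold change of 0.65 missed the threshold (95% interval 0.12 to 1.17, adjusted p = 0.0702). Dnali1, an inner arm light chain, was at 0.544, 0.867 and 0.349 CPM in the cochlea and at 1.18, 1.59 and 1.94 CPM in the vestibule (log2 fold change 1.41, SE 0.37, adjusted p = 0.0229). Dnal1, an outer arm light chain, was at 25.3, 22.2 and 26.9 CPM in cochlear libraries and 34.6, 34.9 and 37.6 CPM in vestibular ones. Its log2 fold change of 0.52 (SE 0.13, adjusted p = 0.0173) was the smallest among the 26 called genes. Armc4 (ENSMUSG00000061802, chr18:7088209-7297936, minus strand), which docks the outer arms, was at 2.51, 3.32 and 3.94 CPM in the cochlea and at 16.5, 15.8 and 19.7 CPM in the vestibule, a log2 fold change of 2.41 (SE 0.22, adjusted p = 8.4e-05).

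**Figure D2:**
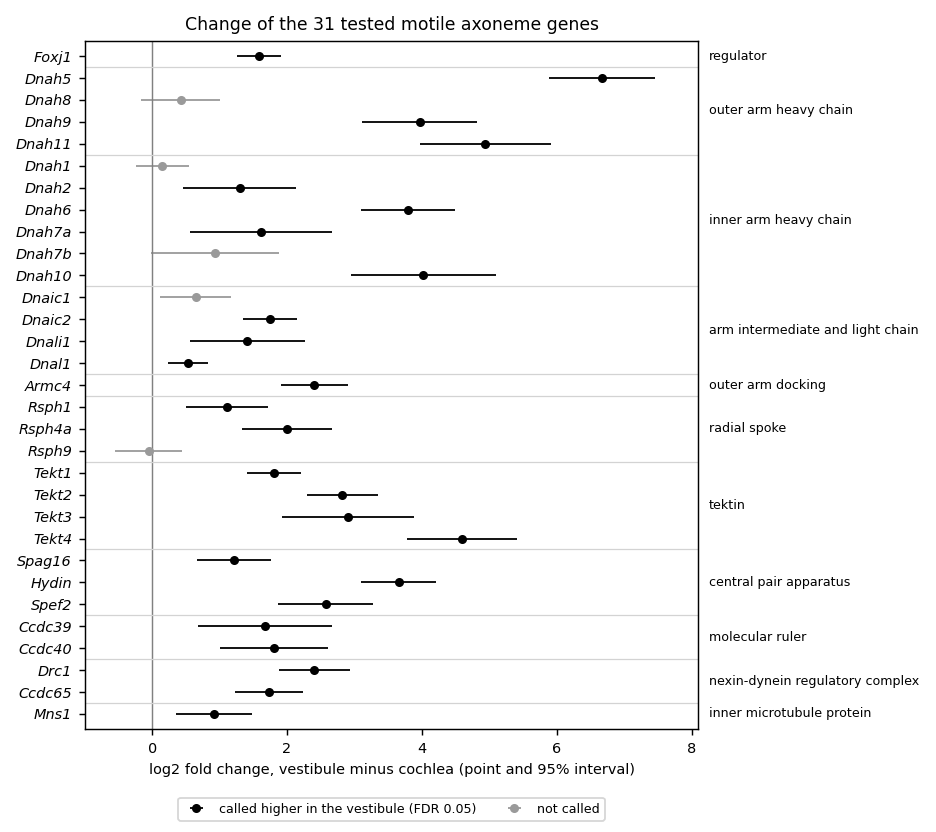
Log2 fold change, vestibule minus cochlea, of the 31 tested axoneme genes with its 95% interval, grouped by role, in black where called higher in the vestibule at an FDR of 0.05 and in grey where not called. Dnah5 stands highest at 6.67, Rsph9 is the only gene below 0 at -0.05, and the heavy chains within each arm class range from near 0 to 4 or more.

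Of the 3 radial spoke genes 2 were called higher in the vestibule, beside 15.8% of all genes tested. Rsph9 (ENSMUSG00000023966, chr17:46122035-46144216, minus strand), a spoke head protein, was at 15.6, 15.6 and 10.4 CPM in the cochlea and at 11.4, 12.3 and 16.4 CPM in the vestibule. The libraries of the tissues were interleaved, and the log2 fold change was -0.05 (95% interval -0.55 to 0.44, adjusted p = 0.885), with a sign that changed between alternative settings. Rsph1 (ENSMUSG00000024033, chr17:31255019-31277383, minus strand), a spoke head protein too, was at 2.55, 3.20 and 2.13 CPM in the cochlea and at 4.57, 5.14 and 7.34 CPM in the vestibule, a log2 fold change of 1.11 (SE 0.26, adjusted p = 0.0143). Rsph4a, a further spoke head protein, was at 1.88, 2.56 and 1.15 CPM in the cochlea and at 6.78, 7.51 and 8.09 CPM in the vestibule, a log2 fold change of 2.0 (SE 0.29, adjusted p = 0.00116). The differences between the spoke genes' changes were not tested.

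All 4 tektins, filament proteins inside the doublet microtubules, were called higher in the vestibule, beside 15.8% of all genes tested. Tekt3 and Tekt4 passed the filter through the vestibular libraries alone. Tekt4 (ENSMUSG00000024175, chr17:25454615-25476602, plus strand) had 7, 6 and 16 counts in cochlear libraries and 261, 229 and 278 in vestibular ones, a log2 fold change of 4.59 (SE 0.36, adjusted p = 3.9e-05). Tekt3 (ENSMUSG00000042189, chr11:63061654-63094964, plus strand) was low throughout, with 6, 6 and 2 counts in cochlear libraries and 42, 33 and 44 in vestibular ones, a log2 fold change of 2.90 (SE 0.43, adjusted p = 0.00122). The cochlear counts of these genes were close to 0, and their fold changes are correspondingly imprecise. Tekt2 was at 2.88, 2.98 and 4.85 CPM in the cochlea and at 27.5, 25.2 and 23.2 CPM in the vestibule (log2 fold change 2.82, SE 0.23, adjusted p = 4.9e-05), though 20.8% of its exon bases overlap Gm12945 on the opposite strand. Tekt1 (ENSMUSG00000020799, chr11:72344722-72362442, minus strand), the highest tektin per length in both tissues, was at 8.45, 11.0 and 8.58 CPM in the cochlea and at 28.1, 33.0 and 36.9 CPM in the vestibule, a log2 fold change of 1.80 (SE 0.17, adjusted p = 0.00012).

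In the central pair apparatus, Hydin (ENSMUSG00000059854, chr8:110266977-110610253, plus strand), a very large central pair protein, was at 1.67, 2.86 and 2.86 CPM in the cochlea and at 37.3, 27.6 and 28.7 CPM in the vestibule. The groups lay far apart, and the log2 fold change was 3.65 (SE 0.24, adjusted p = 1.7e-05). Spef2 was at 0.711, 0.905 and 1.50 CPM in the cochlea and at 6.97, 6.62 and 5.12 CPM in the vestibule (log2 fold change 2.57, SE 0.31, adjusted p = 0.000388). Spag16 was at 5.35, 3.05 and 4.12 CPM in the cochlea and at 8.78, 9.25 and 11.0 CPM in the vestibule (log2 fold change 1.21, SE 0.24, adjusted p = 0.00568). Spag17, the binding partner of Spag16 in the central pair, was hardly detected in either tissue, with 8, 7 and 16 counts in cochlear libraries and 12, 5 and 8 in vestibular ones. Its ratio of summed counts was 0.718 with a 95% interval for counting error of 0.407 to 1.26, its log2 fold change without the filter was -0.49 (SE 0.52, adjusted p = 0.553), and 15.7% of its exon bases overlap other genes on the opposite strand.

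The rulers Ccdc39 and Ccdc40, which together set the spacing of spokes and inner arms, were both called. Over all genes tested 15.8% were called higher in the vestibule. Ccdc40 (ENSMUSG00000039963, chr11:119228572-119265238, plus strand) was at 5.18, 10.6 and 11.6 CPM in the cochlea and at 43.9, 31.3 and 20.5 CPM in the vestibule, a log2 fold change of 1.80 (SE 0.35, adjusted p = 0.00514). Ccdc39 was at 1.34, 4.15 and 4.46 CPM in the cochlea and at 15.3, 8.80 and 7.81 CPM in the vestibule, a log2 fold change of 1.67 (SE 0.43, adjusted p = 0.0211), and 16.9% of its exon bases overlap Ttc14 on the opposite strand. Both genes were lowest in cochlea replicate 1 and highest in vestibule replicate 1. In the nexin-dynein regulatory complex, Ccdc65 (ENSMUSG00000003354, chr15:98708207-98723336, plus strand) was at 2.97, 4.56 and 4.92 CPM in the cochlea and at 13.1, 13.3 and 15.1 CPM in the vestibule, a log2 fold change of 1.73 (SE 0.22, adjusted p = 0.000583). Drc1 was at 2.59, 4.45 and 3.21 CPM in the cochlea and at 18.8, 16.1 and 19.5 CPM in the vestibule, a log2 fold change of 2.41 (SE 0.23, adjusted p = 0.000114). Mns1 (ENSMUSG00000032221, chr9:72438011-72462025, plus strand), a protein of the microtubule lumen, was at 2.59, 1.55 and 2.34 CPM in the cochlea and at 4.32, 3.99 and 3.89 CPM in the vestibule, a log2 fold change of 0.92 (SE 0.25, adjusted p = 0.0248). Since 53.0% of its exon bases overlap Tex9 on the opposite strand and the strand setting of the counting is not given in the sources used here, the value of Mns1 is uncertain.

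**Figure D3:**
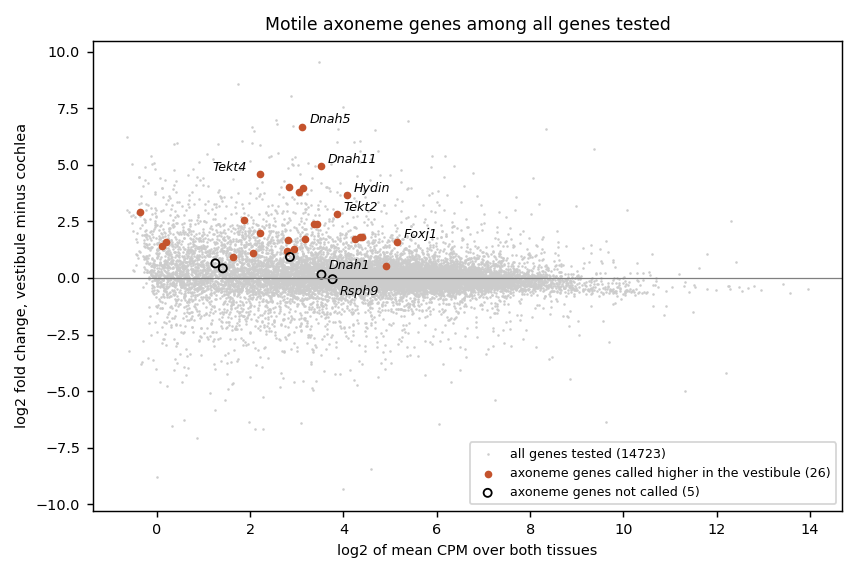
Log2 fold change, vestibule minus cochlea, against log2 of the mean CPM over both tissues for the 14723 genes tested, with the 26 called axoneme genes as filled red points and the 5 not called as open circles. The axoneme genes lie at low to middle levels and all but Rsph9 lie above 0, from -0.05 to 6.67 for Dnah5.

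Levels were compared between genes per length, on the authors' log2 RPKM (reads scaled to gene length and library size, without TMM). In the vestibule Foxj1 stood first at 4.39 ± 0.08 (SD, n = 3) and Tekt1 next at 4.39 ± 0.13, and these neighbours did not differ beyond their spread. Tekt2 followed at 3.79 ± 0.19, then Rsph9 at 3.11 ± 0.21, with Ccdc65 at 2.93 ± 0.05 and Drc1 at 2.93 ± 0.14 within the spread of each other. In the cochlea Rsph9 stood first at 3.03 ± 0.31, then Foxj1 at 2.68 ± 0.14 and Tekt1 at 2.46 ± 0.16, each within about the spread of its neighbour. Dynein heavy chains held ranks 18 and lower in the vestibule and, except Dnah1, in the cochlea. Dnah5 ranked 31 of 31 in the cochlea, at -6.68 ± 0.66, and 20 in the vestibule, at 0.17 ± 0.40, and Tekt4 ranked 21 in the cochlea and 8 in the vestibule. Dnah1 went the other way in rank, from 12 in the cochlea to 23 in the vestibule, at a nearly constant level of -0.30 ± 0.24 and -0.02 ± 0.10. Among the outer arm heavy chains the vestibular levels of Dnah11 (0.54 ± 0.84), Dnah5 (0.17 ± 0.40) and Dnah9 (0.07 ± 0.50) did not differ beyond their spread, and Dnah8 lay below them at -2.20 ± 0.29.

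The axoneme genes also varied between libraries of the same tissue, and did so with gene length. Of the 31 tested, 11 were longer than 8 kb, namely Hydin and all the tested dynein heavy chains, and all 11 were higher in vestibule replicate 1 than in replicate 3, with a median log2 ratio of 0.85 and a range of 0.04 to 1.55. The 7 under 2 kb had a median log2 ratio of -0.53 between the same libraries, and 1 of them was higher in replicate 1. A trend in the same direction ran through all genes tested, with medians of 0.37 over 8 kb and -0.33 under 2 kb. Between cochlea replicates 3 and 1 all genes gave 0.31 and -0.19, and the tested axoneme genes 0.85 and 0.02. Between the tissues the length classes of all genes had median log2 fold changes of -0.03 to 0.05. Those of the tested axoneme genes were 1.80 under 2 kb, 1.59 from 2 to 4 kb, 1.71 from 4 to 8 kb and 3.65 over 8 kb. The last of these includes Dnah5, Dnah11 and Dnah7a, which passed the filter through the vestibular libraries alone, and Dnah9, Dnah6 and Dnah10, which passed with only 1 or 2 cochlear libraries, while Dnah1, Dnah8, Dnah7b, Dnah2 and Hydin, at 1 CPM or more in all 6 libraries, had log2 fold changes of 0.15, 0.43, 0.93, 1.3 and 3.65. The medians of the classes are therefore not comparable. With the length trend of each library removed, an alternative added after seeing the data, all 26 axoneme genes were still called higher in the vestibule and 0 higher in the cochlea.

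**Figure D4:**
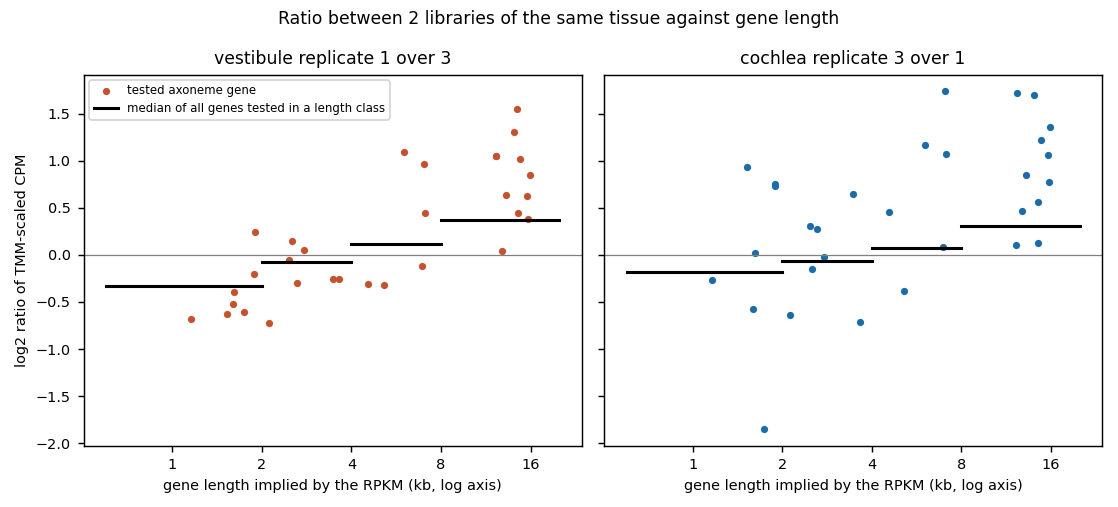
Log2 ratio of TMM-scaled CPM between vestibule replicates 1 and 3 (left) and cochlea replicates 3 and 1 (right) against gene length in kb on a log axis, with tested axoneme genes as points and the median of all genes tested in each length class as a bar. In both panels the bars rise with length, from -0.33 to 0.37 on the left and from -0.19 to 0.31 on the right, and the 11 axoneme genes over 8 kb all lie above 0 on the left.

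For 19 of the 26 called genes the call was kept in every alternative that tested them, among them Foxj1, Hydin, Armc4, Drc1, Dnaic2 and the 4 tektins. Of the other 7, 6 lost it when a single library was left out, and none of the 26 changed sign in any alternative. Dnah2 had an adjusted p of 0.0956, 0.121, 0.0989 and 0.0833 without cochlea replicate 1, cochlea replicate 2, vestibule replicate 1 and vestibule replicate 2. Mns1 had 0.0721, 0.0717 and 0.0757 without cochlea replicate 2, vestibule replicate 1 and vestibule replicate 2, and Dnal1 0.05002, 0.0617 and 0.0662 without cochlea replicate 1, cochlea replicate 2 and vestibule replicate 2. Ccdc39 had 0.0550 and 0.0722 without cochlea replicate 2 and vestibule replicate 1, Dnah7a 0.0586 and 0.0853 without cochlea replicates 1 and 2, and Dnali1 0.0708 without cochlea replicate 1. Leaving out vestibule replicate 1 or 2 left 17 called genes and leaving out vestibule replicate 3 left 20, of 25 tested in each case. Counts over all genes also changed when a library was left out, and their range is given in the last section. With 2 vestibular libraries the 6 genes without a cochlear library at 1 CPM no longer pass the filter, which leaves 20 of the 26 to be called, and the other losses were Dnah2, Ccdc39 and Mns1 without vestibule replicate 1 and Dnah2, Mns1 and Dnal1 without vestibule replicate 2.

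A further 67 genes, in 4 lists, comprise the 12 regulators above and 55 other axoneme and assembly genes. Of the 67, 53 were tested, 35 were called higher in the vestibule and 0 higher in the cochlea, where 15.8% and 11.6% of all genes tested were called, and 18 were not called. Their median log2 fold change was 1.35, with a range of -0.40 to 4.54, and without the regulators 34 of 50 tested genes were called. The filter favours genes high in one tissue here too, so the count over the 53 is an account of these genes. Without the filter 41 of the 67 were called higher in the vestibule, where 11.3% of all genes were. The count was 25, 23 and 24 without vestibule replicates 1, 2 and 3, and 32, 34 and 39 without cochlea replicates 1, 2 and 3. Among 13 genes for dynein arm assembly and docking, 12 were tested and 8 called, led by Zmynd10 (log2 fold change 2.86), Lrrc6 (2.80) and Dnaaf1 (2.58), which build the arms in the cytoplasm. Among 24 further spoke, central pair and regulatory complex genes, 21 were tested and 15 called, led by Wdr96 (3.89), Cfap46 (3.53) and Tcte1 (3.47). Among 18 further inner and tip proteins, 17 were tested and 11 called, led by Ak7 (4.54), Ccdc19 (2.97) and Cfap126 (2.87). The assembly factors Dnaaf2 and Heatr2 were not called, at 0.03 (SE 0.18) and 0.12 (SE 0.14).

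Intraflagellar transport genes build and maintain cilia of every kind. All 24 were tested, 2 were called higher in the vestibule and 0 higher in the cochlea, beside 15.8% and 11.6% of all genes tested, and their median log2 fold change was 0.19. The difference between this list and the axoneme genes was not tested. The called genes were Ift74, at 0.65 (SE 0.19, adjusted p = 0.0322), and Ift20, at 0.44 (SE 0.14, adjusted p = 0.0439). Their summed level was 756 to 829 CPM in cochlear libraries and 852 to 893 CPM in vestibular ones, while that of the 34 axoneme genes was 127 to 161 CPM and 458 to 527 CPM.

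**Figure D5:**
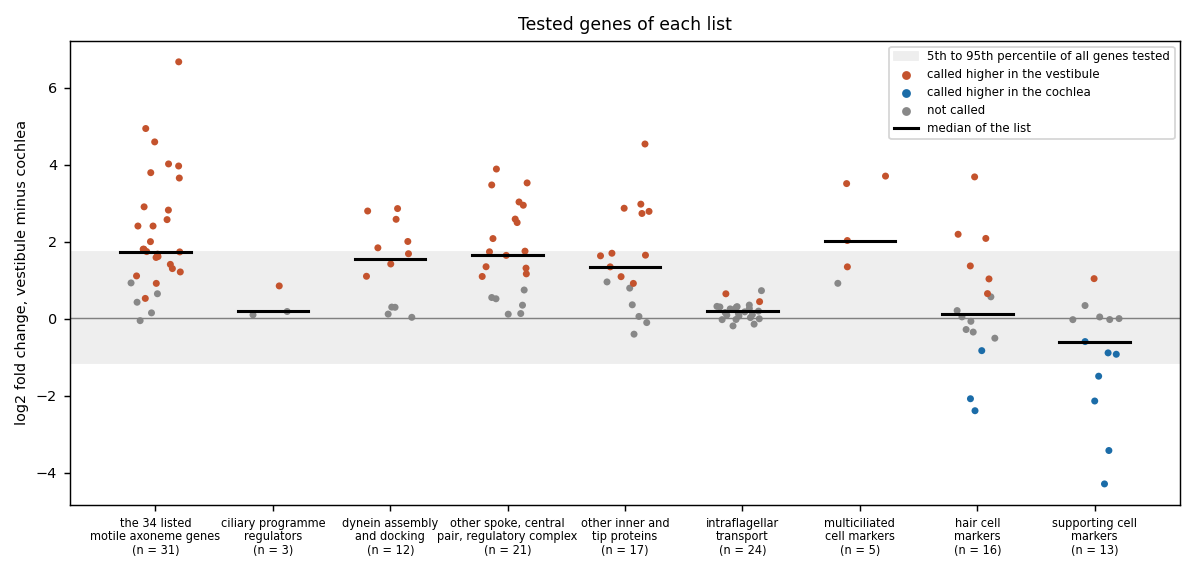
Log2 fold change, vestibule minus cochlea, of the tested genes of 9 lists, coloured by call, with a bar at the median of each list and a grey band from the 5th to the 95th percentile of all genes tested. The motile axoneme lists other than the regulators have medians from 1.34 to 1.74, intraflagellar transport genes cluster at a median of 0.19, and hair cell markers spread from -2.39 to 3.68 around 0.13.

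Markers of the cell types that could carry cilia or fill the rest of the tissue were read beside these results, and their part in the axoneme difference was not tested. Over all genes tested 15.8% were called higher in the vestibule and 11.6% higher in the cochlea. Of 16 hair cell markers, 6 were called higher in the vestibule, led by Slc17a8 (log2 fold change 3.68), Gfi1 (2.19) and Otof (2.08), and 3 higher in the cochlea, Pvalb (-2.39), Calb2 (-2.08) and Cib2 (-0.83). Their median was 0.13, and Pou4f3, a transcription factor of hair cells, changed by 0.65 (SE 0.16, adjusted p = 0.0152). Their summed level was 959 to 1155 CPM in the cochlea and 1271 to 1470 CPM in the vestibule. Of 12 markers of multiciliated cells, 5 were tested and 4 called higher in the vestibule, namely 1110017D15Rik (3.70), Fam183b (3.51), Lrriq1 (2.03) and Dynlrb2 (1.34), the last also in the list of inner and tip proteins. The other 7 did not pass the filter, which favours genes high in one tissue, so the count over the 5 is only an account of them. Their summed level was 7.07 to 11.1 CPM in the cochlea and 37.8 to 55.8 CPM in the vestibule, while Mcidas, Sntn, Tmem212 and Ccdc153 had 0 to 4 counts in every library. Of 9 airway and middle ear secretory markers 0 passed the filter, with Scgb1a1 at 0 or 1 count and a summed level of 0.678 to 3.18 CPM in the cochlea and 1.41 to 2.98 CPM in the vestibule. Of 8 choroid plexus markers 6 were tested, 2 were called higher in the vestibule (Kl 1.81 and Kcnj13 1.34) and 2 higher in the cochlea (Clic6 -3.49 and Slc4a5 -0.91), with a summed level of 233 to 341 CPM and 80.0 to 140 CPM.

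Markers of other cell types are given in the same way, beside the same shares of all genes tested, and their part in the axoneme difference was likewise not tested. Of 13 supporting cell markers 7 were called higher in the cochlea, led by Fgfr3 (-4.29), Hes5 (-3.43) and Gjb2 (-2.14), and 1 higher in the vestibule, Otog (1.04), at a summed level of 3347 to 4436 CPM in the cochlea and 3735 to 4411 CPM in the vestibule. Of 10 neuron markers 6 were called higher in the cochlea, led by Gata3 (-4.06), Tubb3 (-2.54) and Elavl4 (-2.53), at 470 to 857 CPM and 173 to 371 CPM. All 8 macrophage markers were called higher in the vestibule, led by C1qc (2.05), C1qb (2.04) and Ptprc (1.91), at 107 to 128 CPM in the cochlea and 383 to 469 CPM in the vestibule. So were 6 of 7 endothelial markers, led by Kdr (3.60), Pecam1 (1.77) and Esam (1.61), at 89.0 to 141 CPM and 382 to 526 CPM. All 6 melanocyte markers were called higher in the vestibule, led by Tyrp1 (6.07), Mlana (4.99) and Pmel (2.47), at 41.4 to 70.0 CPM and 281 to 356 CPM. Of 7 dark cell and stria markers 5 were, led by Barttin (3.83), Esrrb (3.35) and Kcne1 (2.93), at 721 to 856 CPM and 1196 to 1392 CPM. Of 7 Schwann cell markers 4 were called higher in the vestibule, among them Pmp22 (1.45) and Mbp (1.16), at 539 to 775 CPM and 985 to 1516 CPM. Of 9 mesenchyme markers 4 were called higher in the vestibule and 2 in the cochlea, led by Lum (-2.51), Col1a1 (1.55) and Pdgfra (1.15), at 5339 to 6061 CPM and 7632 to 8717 CPM. Of 8 cartilage and bone markers 3 were called higher in the vestibule and 2 in the cochlea, led by Matn1 (-4.60), Ibsp (4.27) and Acan (3.52), at 10797 to 18297 CPM and 12972 to 15157 CPM. None of the 4 tested skeletal muscle markers and none of the 5 tested red blood cell markers was called, the latter at 298 to 753 CPM and 481 to 606 CPM. Without cochlea replicate 3, the library with the muscle genes, 27 axoneme genes were called higher in the vestibule. In that fit 2694 of all 14504 genes tested were called in the same direction.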

How the data were processed

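Sensory epithelia of the P0 mouse cochlea and vestibule were each sequenced in 3 RNA-seq libraries. Per the labels and the study's methods, the authors aligned reads with TopHat2 2.1.0 to GRCm38, handled alignments with SAMtools 0.1.18 and deposited whole read counts per Ensembl gene from HTSeq 0.5.4p5, with no normalization. The authors also deposited a log2 RPKM matrix made with edgeR 3.4.2, used here only for levels per length and for gene lengths. Summary lines, 18.5% to 20.6% of all listed counts, stayed out. Symbols were matched through GENCODE vM21 (GRCm38), which is not the Ensembl release counted on.

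Genes that reached 1 CPM in no fewer than 3 libraries entered edgeR's quasi-likelihood test (edgeR 4.0.16, R 4.3.3) with TMM scaling and no block, with p-values adjusted by Benjamini-Hochberg over all of them and an FDR of 0.05. Intervals for ratios of summed counts are exact and cover counting error only. Alternatives were DESeq2 size factors, no TMM, other filters, DESeq2 1.42.0, limma-voom (limma 3.58.1), an FDR of 0.1 plus a 1.3-fold change, a replicate block, leaving out each library, and gene length. Full statistics were given to Foxj1, to the 8 called genes with the largest change and to the highest gene per length of each structural group, and the 3 called genes with the largest change were named in each other list, except that 1 such gene is not reported here. Further axoneme genes and the defining markers near 0 are named as well. The genes and lists were chosen with earlier results of these data known. Of 7 red blood cell markers 6 were matched. Groups of 3 libraries are too small to test for outlying libraries. Python 3.11.15 with matplotlib 3.10.9 drew the figures.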

Additional observations from a re-analysis of the deposited data

How the results depend on the processing

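The count of axoneme genes called higher in the vestibule, 26, was between 26 and 27 under the other scalings, tests and thresholds run, without a filter, with filterByExpr or with 0.5 CPM in 3 or more libraries, and with the length trend removed, 20 with a replicate block, and 17 to 27 when each library was left out in turn. The count higher in the cochlea was 0 under all of them. Over all genes the leave-one-out counts were 1342 to 2694 higher in the vestibule and 925 to 1863 higher in the cochlea, and 23 to 39 of the further axoneme genes were called. The replicate block gave 1609 and 1009 genes over the whole table, and 6 axoneme genes lost their call under it, Dnah2 (adjusted p = 0.0978), Rsph1 (0.0566), Ccdc39 (0.0841), Mns1 (0.0638), Dnal1 (0.0730) and Dnali1 (0.0610). Same-numbered libraries had correlations of -0.18, -0.26 and -0.47 in their deviations from the tissue means, and no library correlated best with its own number. These deviations also carry the length trend of each library, so they cannot show whether same-numbered libraries were paired. Library sizes without TMM moved the median of all genes to 0.13. In that setting, shift included, the change of Rsph9 went from -0.053 to 0.062 and that of Dnaic1 from 0.65 to 0.76, which was called (adjusted p = 0.0476). When each library was left out, Rsph9 ranged from -0.229 without cochlea replicate 3 to 0.0663 without vestibule replicate 1, and was also positive without cochlea replicate 1 or 2 or vestibule replicate 2. A filter of 1 CPM in all 6 libraries, used only to count genes that pass, left 21 axoneme genes, of which 16 were among the 26 called. Genes with few cochlear counts have wide intervals, and Dnah3, Dnah12 and Spag17 were tested only without the filter, where none was called.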
